A study of Rattus norvegicus with 6 samples.

Results

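The genes described here encode the activin and transforming growth factor beta (TGF-beta) ligands, the proteins that bind activin, the TGF-beta receptors and the inhibitory factor SMAD7. They are Inhba, Inhbb, Fst, Fstl3, Tgfb1, Tgfb2, Tgfb3, Tgfbr1, Tgfbr2 and Smad7, chosen by symbol, and all 10 were found among the 20675 genes of the deposited table. They were measured by sequencing of polyadenylated RNA in cultured primary disc cells of the rat temporomandibular joint, the jaw joint, whose disc is a fibrous cushion between its bones. One group of 3 libraries came from cells exposed for 24 h to GSK101, an agonist of the calcium-permeable channel TRPV4, and the control group of 3 from cells that had the solvent DMSO for as long. The dose, the strain, the age and sex of the rats, and whether replicates were separate animals or cultures, were not given in the sources used here. Thus p-values reflect only how far these libraries spread, part of which may be technical.

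Activins and TGF-betas are secreted dimers of related chains. Inhba and Inhbb encode the activin beta A and beta B chains, follistatin (Fst) and follistatin-like 3 (Fstl3) bind activin outside the cell and keep it from its receptors, and TGF-betas are secreted in a latent form that has to be released from the matrix. Both kinds of ligand act through pairs of type II and type I receptor kinases that phosphorylate SMAD2 and SMAD3, and SMAD7 is a feedback inhibitor of the type I receptors. In fibrous and cartilage-like tissues the pathway is known for its control of matrix synthesis and of contractile genes.

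The libraries held 43061102 to 45705238 counted reads, and the levels below are RPKM, reads divided by gene length in kilobases and scaled to the library's total of reads in genes. Of the 12801 genes tested with limma on log2(RPKM + 0.5), 31.9% passed an adjusted p of 0.05 (Benjamini-Hochberg over all tested genes), 20.1% higher and 11.9% lower with GSK101. The share of these calls that were higher was 62.9%, and it was 72.4% after rescaling to TPM, 52.7% with median-ratio scaling and 48.1% with quantile normalization. Of the 12 listed markers of fibroblasts and disc cells 11 were found, with a summed level of 11653 to 12728 in the controls and 10582 to 11874 with GSK101. Of the 10 of them that were tested, 5 were higher and 1 lower, with a median log2 fold change of 0.16. The 9 chondrocyte markers found summed to 139.6 to 158.6 in the controls and 120.7 to 133.9 with GSK101. Of these 9, 6 were under 0.5 RPKM in every library, Col2a1, the cartilage collagen II gene, among them. The rest were Col11a1, Acan and Sox9, with means of 110, 33.6 and 2.80 RPKM in the controls. With GSK101 they had 92.1, 31.9 and 2.46, and only Col11a1 was called, as lower (limma adjusted p = 0.0189). Summed smooth muscle and pericyte markers went from 5493 to 5709 in the controls down to 3038 to 3319.7 with GSK101. Most of this sum was Acta2, with means of 4946 and 2734 RPKM. Skeletal muscle markers went from 15.4 to 16.5 down to 9.60 to 10.3, mostly Acta1, with means of 12.4 and 7.69. In each list 3 of the markers found were under 0.5 RPKM in every library. Of the 7 and 4 tested, 5 and 3 were lower (71.4% and 75% called, beside 31.9% of all tested genes). Des, in both lists, and Cspg4 were not called. Macrophage markers summed to 8.59 to 12.3 and 7.72 to 12.3, endothelial ones to 0.778 to 1.03 and 1.22 to 1.41, and epithelial ones to 2.10 to 2.36 and 1.79 to 2.03, with no marker at 0 in all 6 libraries. Of the 7 endothelial markers found, 6 were under 0.5 RPKM in every library. The other, Kdr, had means of 0.551 RPKM in the controls and 1.01 with GSK101 and was called higher (limma adjusted p = 0.00875). In bulk RNA, fewer cells of a type and less RNA per cell cannot be told apart.

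With GSK101 both activin beta chain genes were higher, the activin-binding Fstl3 was lower, and Fst did not pass the test. Among the TGF-beta ligands Tgfb3 and Tgfb2 were lower and Tgfb1 did not pass. Tgfbr2 and Smad7 were slightly higher, and Tgfbr1 did not pass. All 10 genes passed the filter on low values and were tested. In all, 4 were higher and 3 lower, 70% called against 31.9% of all tested genes, with a median log2 fold change of 0.11 beside 0.03 for all tested genes. The genes were chosen with earlier results of these data known, so this share is a description. The number that were higher was 2 with quantile normalization, without control replicate 3, and without GSK101 replicate 1 or 2. For 7 of the 10 genes the 2 groups had no overlap, against 47.3% of all tested genes.

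**Figure D1:**
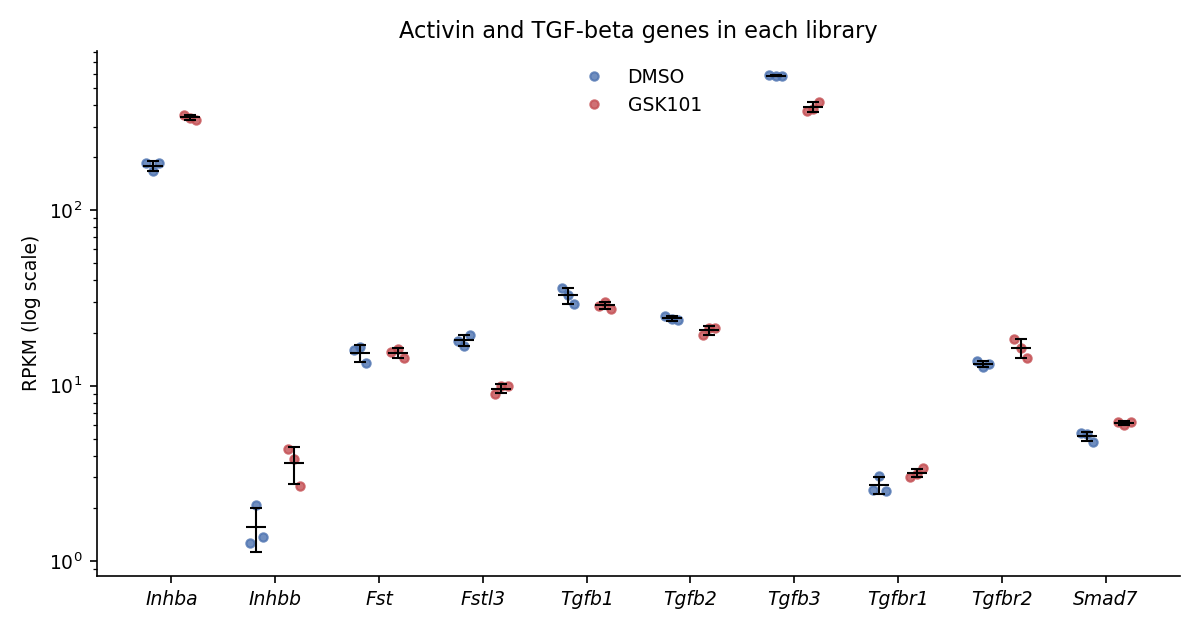
RPKM of each gene (vertical axis, log scale) in the 3 DMSO libraries (blue) and the 3 GSK101 libraries (red), with the mean and SD as black bars. Inhba rose from 166.6 to 187 up to 329 to 348, and Tgfb3 fell from 581 to 593 down to 369 to 415.

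Inhba encodes the chain whose homodimer is activin A. Its level was 186, 167 and 187 RPKM in control replicates 1, 2 and 3, and 348, 337 and 329 in GSK101 replicates 1, 2 and 3. The lowest GSK101 library lay far above the highest control, on 18707 to 39558 reads per library. The means were 179.8 ± 11.5 and 338 ± 9.53 (SD, n = 3), and the log2 fold change was 0.91 (SE 0.05, 95% interval 0.79 to 1.04, limma adjusted p = 0.000101). Only 1.42% of the tested genes had a larger absolute log2 fold change. By mean RPKM, Inhba was gene 537 in the controls and gene 281 with GSK101, counted from the highest of the 20675.

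Inhbb, the beta B chain gene, was scarce. It had 1.26, 2.09 and 1.38 RPKM in the controls and 4.38, 3.84 and 2.68 with GSK101, on 180 to 608 reads per library. The groups did not overlap, but both were spread widely, with a coefficient of variation of 28.3% in the controls and 23.9% with GSK101. The ratio of the means was 2.30, and the log2 fold change, which understates the change of so low a gene on the log2(RPKM + 0.5) scale, was 0.99 (SE 0.19, limma adjusted p = 0.00665). The wide interval, 0.55 to 1.44, contains the whole interval of Inhba. Inhba exceeded Inhbb 121-fold on average in the controls (79.9 to 147 per library) and 96.7-fold with GSK101 (79.5 to 123), with overlapping ranges, so the data did not separate the rise of one chain from that of the other.

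The genes of the 2 activin-binding proteins differed from each other. Fst had 16.03, 16.5 and 13.4 RPKM in the controls and 15.5, 16.3 and 14.4 with GSK101, so the GSK101 values lay within the range of the controls. On the log2 scale the difference was 0.01 (95% interval -0.18 to 0.21, limma adjusted p = 0.94), and it turned to -0.028 with median-ratio scaling, -0.029 without GSK101 replicate 2, -0.052 with quantile normalization and -0.078 without control replicate 3. Fstl3 had 18.1, 16.7 and 19.5 RPKM in the controls and 8.96, 9.94 and 10.01 with GSK101. Every GSK101 library was well below every control, and Fstl3 fell by 0.87 on the log2 scale (SE 0.07, limma adjusted p = 0.000199), 1.88-fold by the ratio of the means. Only 1.76% of the tested genes changed more.

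Ratios of RPKM within a library set these genes against each other and do not move with a scaling of the whole library. They were not tested, and depend on the gene models of the file, in which Fst is 1096 bases and Inhba 2554 bases long. Inhba exceeded Fstl3 10.3-, 9.95- and 9.61-fold in the controls and 38.8-, 33.9- and 32.8-fold with GSK101, so this ratio was 3.54 times as high on average and its groups lay far apart. Inhba to Fst went from 11.9 ± 1.93 to 22.0 ± 1.12 (SD, n = 3), 1.85 times as high. The sum of both beta chain genes over the sum of Fst and Fstl3 was 5.48, 5.07 and 5.72 in the controls and 14.4, 13.0 and 13.6 with GSK101. The Fst to Fstl3 ratio was below 1 in every control (0.691 to 0.987) and above 1 in every GSK101 library (1.44 to 1.73), so the order of the 2 activin-binding genes was opposite in the groups.

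**Figure D2:**
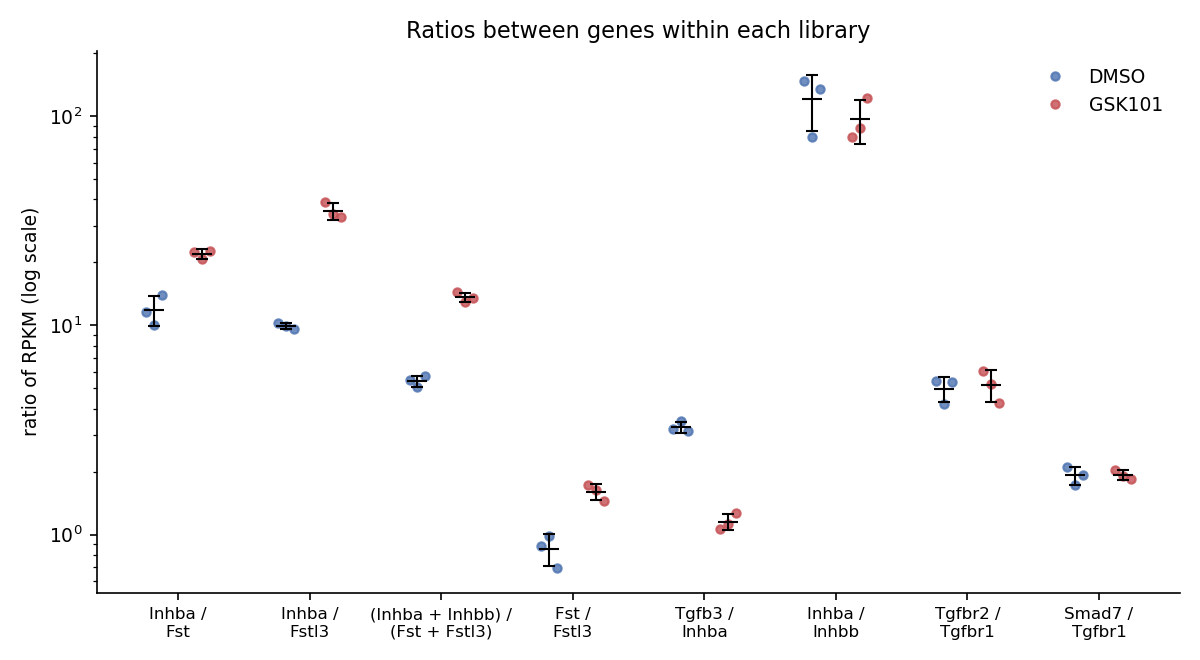
Ratios of RPKM between genes (vertical axis, log scale) within each of the 3 DMSO (blue) and 3 GSK101 libraries (red), with mean and SD as black bars. Inhba to Fstl3 rose from about 9.94 to 35.2 and Tgfb3 to Inhba fell from 3.27 to 1.15, while Inhba to Inhbb and the receptor ratios overlapped.

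Tgfb3 was the most abundant of the 10 genes in both groups. It had 593, 581 and 583 RPKM in the controls, a coefficient of variation of 1.10%, and 369, 378 and 415 with GSK101. All 3 GSK101 libraries were below all controls. Tgfb3 fell by 0.60 on the log2 scale (SE 0.05, 95% interval -0.71 to -0.48, limma adjusted p = 0.000249), on 43083 to 71027 reads per library. Its place by mean RPKM went from 164 to 240 of the 20675 genes.

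Tgfb2 had 25.05, 23.9 and 23.7 RPKM in the controls and 19.4, 21.3 and 21.4 with GSK101. The groups did not overlap, and Tgfb2 fell by 0.22 on the log2 scale (SE 0.05, limma adjusted p = 0.0171), which was no longer called without GSK101 replicate 1 (-0.18, adjusted p = 0.0604). Tgfb1 had 35.9, 32.8 and 29.3 RPKM in the controls and 28.6, 30.02 and 27.5 with GSK101, and GSK101 replicate 2 lay above control replicate 3. Its log2 fold change of -0.18 (SE 0.07) did not pass (limma adjusted p = 0.11), but passed without control replicate 3 (-0.25, adjusted p = 0.0228) and with limma-voom on the recovered reads (-0.18, adjusted p = 0.0483).

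Together the 3 TGF-beta ligand genes summed to 643 ± 9.94 RPKM in controls and 437 ± 24.0 under GSK101 (SD, n = 3), 1.47-fold less. Tgfb3 made up 91.2 ± 0.50% of that sum in the controls and 88.7 ± 0.71% with GSK101, and the shares of Tgfb1 and Tgfb2 went from 5.08% to 6.59% and from 3.77% to 4.74%. None of these shares overlapped between the groups. Tgfb3 exceeded Inhba 3.27 ± 0.20-fold in the controls, but 1.06-, 1.12- and 1.26-fold in GSK101 replicates 1, 2 and 3. These 2 ligand genes, the highest of the 10 genes in both groups, thus came close to each other in the GSK101 libraries.

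**Figure D3:**
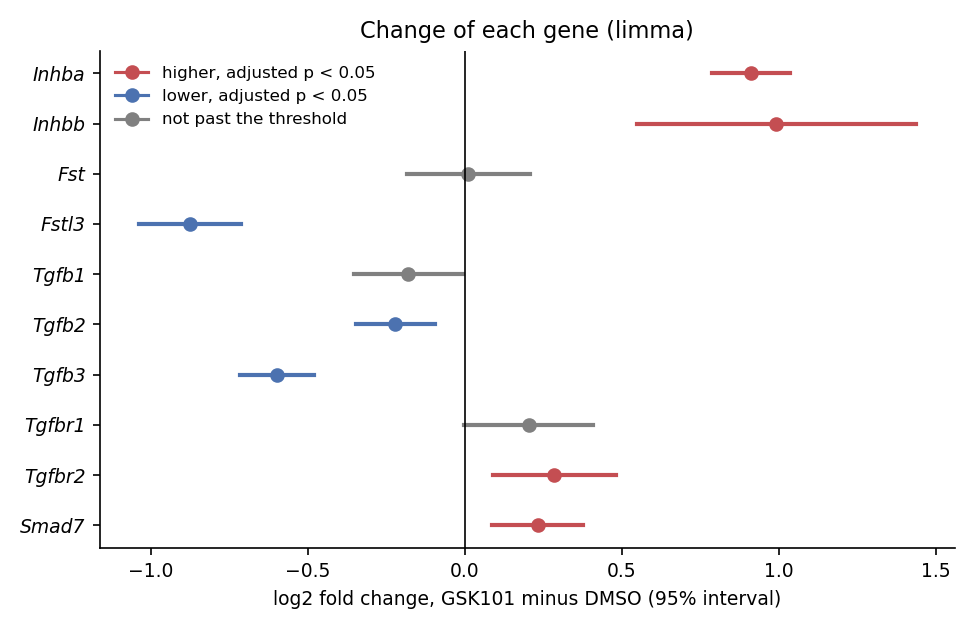
Log2 fold change of each gene, GSK101 minus DMSO, on the log2(RPKM + 0.5) scale (horizontal axis), with its 95% interval from limma over 3 libraries a group. The intervals of Inhba, Inhbb, Tgfbr2 and Smad7 (red) lie above 0 and those of Fstl3, Tgfb2 and Tgfb3 (blue) below, while grey genes did not pass the adjusted threshold.

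The log2 fold changes of Tgfbr1 and Tgfbr2 were 0.20 and 0.28. Tgfbr2, which encodes the type II receptor that binds TGF-beta, had 13.8, 12.8 and 13.4 RPKM in the controls and 18.4, 16.5 and 14.4 with GSK101. The groups did not overlap, but the GSK101 libraries were spread over 12.1% of their mean (coefficient of variation), against 3.54% in the controls. The log2 fold change was 0.28 (SE 0.08, limma adjusted p = 0.0355). The call did not hold without control replicate 1, 2 or 3 (adjusted p = 0.0561, 0.101 and 0.0743) or without GSK101 replicate 1 or 2 (0.0970 and 0.0887). It was also lost with median-ratio scaling (0.0527), quantile normalization (0.0728), no filter (0.0782) and limma without the trend (0.0582).

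Tgfbr1 encodes the type I receptor kinase (ALK5) that TGF-beta recruits. It had 2.55, 3.06 and 2.505 RPKM in the controls and 3.04, 3.13 and 3.38 with GSK101, with an overlap from control replicate 2. Its log2 fold change was 0.20 (SE 0.09, 95% interval up to 0.41) and did not pass (limma adjusted p = 0.12), but passed without control replicate 2 (0.28, adjusted p = 0.0487) and with limma-voom (0.24, adjusted p = 0.0386). Tgfbr2 exceeded Tgfbr1 4.98 ± 0.68-fold in controls and 5.19 ± 0.90-fold in GSK101 libraries (SD, n = 3), with overlapping values.

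Smad7 had 5.36, 5.29 and 4.81 RPKM in the controls and 6.21, 5.98 and 6.22 with GSK101, and the groups did not overlap. It rose by 0.23 on the log2 scale (SE 0.06, limma adjusted p = 0.0250), 1.19-fold by the ratio of the means. The call was lost with quantile normalization (adjusted p = 0.0831), without control replicate 3 (0.0640) and without GSK101 replicate 1, 2 or 3 (0.0820, 0.0561 and 0.0699). Smad7 to Tgfbr1 was 1.92 ± 0.19 in the controls and 1.93 ± 0.11 with GSK101.

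The order of levels per length, from the highest, was Tgfb3, Inhba, Tgfb1, Tgfb2, Fstl3, Fst, Tgfbr2, Smad7, Tgfbr1 and Inhbb in the controls. Fst and Tgfbr2 were the only neighbours in it whose ranges overlapped. With GSK101 the first 4 places were the same, followed by Tgfbr2, Fst, Fstl3, Smad7, Inhbb and Tgfbr1, and the ranges overlapped for Tgfbr2 and Fst and for Inhbb and Tgfbr1.

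On the Rnor_6.0 build named in the submitters' processing notes, the 4 genes that changed most lie apart. All 4 are on the minus strand. Inhba, with 3 exons, spans 51898217 to 51912496 of chromosome 17, and Inhbb, with 2 exons, 35436532 to 35442222 of chromosome 13. Fstl3, with 5 exons, spans 12804919 to 12810570 of chromosome 7, and Tgfb3, with 7 exons, 109913757 to 109935533 of chromosome 6. Tgfb2 lies from 105039853 to 105141030 on the chromosome of Inhbb. No exon of the 10 genes overlaps an exon of another gene in the file. The 250 bases before the RefSeq gene start are shown for these 4 genes, since they moved most and in both directions. The sequences and their positions are from RefSeq on the GRCr8 build, which is not the build of the file, and run 5′ to 3′ on the gene's strand, with a match to the SMAD-binding CAGA box in capitals.
Inhba, chr17:53804509-53804758, minus strand: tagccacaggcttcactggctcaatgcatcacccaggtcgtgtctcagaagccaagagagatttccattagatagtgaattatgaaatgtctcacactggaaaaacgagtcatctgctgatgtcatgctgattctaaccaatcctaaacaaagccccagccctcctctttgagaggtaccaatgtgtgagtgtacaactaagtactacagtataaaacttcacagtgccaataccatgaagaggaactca
Inhbb, chr13:33089374-33089623, minus strand: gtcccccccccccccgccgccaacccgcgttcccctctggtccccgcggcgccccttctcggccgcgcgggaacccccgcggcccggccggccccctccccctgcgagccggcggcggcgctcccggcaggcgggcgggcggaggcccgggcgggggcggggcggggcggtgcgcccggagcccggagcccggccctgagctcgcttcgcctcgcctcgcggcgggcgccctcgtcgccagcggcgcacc
Fstl3, chr7:10579845-10580094, minus strand: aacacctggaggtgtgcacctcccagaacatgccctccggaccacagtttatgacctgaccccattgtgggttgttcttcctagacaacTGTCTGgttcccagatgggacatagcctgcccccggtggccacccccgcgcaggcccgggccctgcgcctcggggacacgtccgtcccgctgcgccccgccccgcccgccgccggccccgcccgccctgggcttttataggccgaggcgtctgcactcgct
Tgfb3, chr6:111456947-111457196, minus strand: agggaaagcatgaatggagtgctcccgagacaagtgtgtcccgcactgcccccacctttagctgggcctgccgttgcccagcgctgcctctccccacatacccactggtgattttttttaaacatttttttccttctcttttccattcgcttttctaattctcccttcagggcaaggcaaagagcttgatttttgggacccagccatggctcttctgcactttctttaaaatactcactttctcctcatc

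The 4 windows differ in composition. Those of Inhba and Tgfb3 hold 43.6% and 48.8% G or C with 2 and 5 CpG sites, and those of Inhbb and Fstl3 hold 86.8% and 68.8% with 44 and 21, beside a median G or C content of 51.2% over all 33469 RefSeq windows. Genes that rose and genes that fell thus stand on both sides of that median. Windows of 9 of the 10 genes were found by symbol (Fst was the other gene). They were searched on both strands for the AP-1 site TGANTCA, the cyclic AMP response element TGACGTCA, the CAGA box CAGACA and the TEAD site GGAATG, motifs that do not contain one another. The CAGA box was in 1 of the 9, in Fstl3, where its reverse complement starts 161 bases before the gene start, beside 17.2% of all windows. The other motifs were in none of the 9, beside 6.34%, 1.59% and 12.1% of all windows, which says only that these letters are not in these windows.

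Other ligand genes of the family were mostly scarce. Of 13 listed, 11 were found and 3 passed the filter, of which none was higher and 1 was lower in limma (0 and 1 at an unadjusted p of 0.05, and 0 and 1 with limma-voom), 33.3% called beside 31.9% of all tested genes. Gdf11, which encodes an activin-like ligand, had 27.8 ± 1.46 RPKM in controls and 27.7 ± 0.46 under GSK101 (SD, n = 3), and its log2 fold change was -0.0058 (95% interval -0.12 to 0.11), turning to 0.036 without control replicate 3 and 0.0074 without GSK101 replicate 2. Gdf1, whose exons overlap Cers1 on the same strand, had 1.33 and 1.17 RPKM and did not pass. The 1 that fell was Gdf15, a stress-induced ligand named after its values were seen, from 0.898 ± 0.232 to 0.461 ± 0.095 RPKM on 14 to 48 reads (limma adjusted p = 0.0317). The count of lower genes was 0 without control replicate 1 or 2 or GSK101 replicate 2 or 3, and also with no filter and with the filter at 1 RPKM. Inha, whose product pairs with beta chains to form inhibin in place of activin, was named likewise and had 0.348 to 0.673 RPKM in the controls and 0.374 to 0.494 with GSK101, on 22 to 44 reads.

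Of the other receptors and SMADs, 13 listed and 11 tested, 2 were higher and 3 lower, 45.5% called beside 31.9% of all tested genes, with a median log2 fold change of 0.04. Tgfbr3, which encodes betaglycan, a coreceptor that presents TGF-beta and binds inhibin, had 1.46, 1.38 and 1.39 RPKM in the controls and 2.88, 2.58 and 1.96 with GSK101. All GSK101 libraries were higher, and Tgfbr3 rose by 0.62 on the log2 scale (SE 0.12, limma adjusted p = 0.00705), 1.75-fold by the ratio of the means. Eng, the coreceptor endoglin, and Acvrl1, the type I receptor ALK1 that acts with it, fell by 0.35 and 0.27 (limma adjusted p = 0.00835 and 0.00862). Smad3, a transducer of activin and TGF-beta, rose by 0.35 (adjusted p = 0.0177), from 4.51 ± 0.28 to 5.92 ± 0.64 RPKM. Smad6, an inhibitory SMAD best known in BMP signalling, fell by 0.26 (adjusted p = 0.0260).

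The call of Smad3 was lost without control replicate 2 or GSK101 replicate 1 or 2 (adjusted p = 0.0579, 0.0593 and 0.0605), which left 1 higher gene. That of Smad6 was lost without control replicate 1 or 3 or GSK101 replicate 1 or 3 (0.0743, 0.0640, 0.0625 and 0.0763), after rescaling to TPM (0.0589) and with no filter (0.0540). Smad2 and Smad4, named after their values were seen, were not called and had log2 fold changes of 0.09 and 0.04. Of the activin receptor genes, named in the same way, Acvr1b and Acvr2a did not pass either. Acvr2b was not tested, being below the filter at 2 to 8 reads per library. Acvr1b, the type I receptor ALK4, had 1.37 to 1.50 RPKM in the controls and 1.47 to 1.72 with GSK101. Acvr2a had 1.10 to 1.34 and 1.42 to 1.70, and its groups did not overlap (log2 fold change 0.20, limma adjusted p = 0.18). Exons of Acvr1b overlap a gene on the opposite strand, and the sources used here do not give whether counting used strand.

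Genes of TGF-beta latency, release and matrix binding moved in both directions, 4 higher and 5 lower of 17 tested among 21 listed, 52.9% called beside 31.9% of all tested genes, with a median log2 fold change of -0.01. Itgb1, the beta 1 integrin chain, fell by 0.31 from 612 ± 13.0 to 492 ± 6.60 RPKM (SD, n = 3; limma adjusted p = 0.000962). Ltbp2, of the latent TGF-beta binding protein family, fell by 0.44, and Bgn, the proteoglycan biglycan, by 0.40 (adjusted p = 0.00136 and 0.00207). Fstl1, a secreted relative of follistatin with 735 ± 34.4 RPKM in the controls, fell by 0.21 (adjusted p = 0.0112), which was lost with quantile normalization (0.0631). Emilin1, a matrix glycoprotein, rose by 0.30 (adjusted p = 0.0368). Lrrc32, which holds latent TGF-beta at the cell surface, Itgb3 and Dcn, the proteoglycan decorin, were the other higher genes and Bmp1 the other lower one, with adjusted p between 0.0405 and 0.0468, all named after their values were seen. Thbs1, the latent TGF-beta activator thrombospondin 1, named in the same way, did not pass (-0.21, limma adjusted p = 0.0636), though its groups did not overlap.

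The number of higher genes in that list moved with the setting. It was 0 without control replicate 3 or GSK101 replicate 1 or 2, 1 without control replicate 1 or 2 and 2 without GSK101 replicate 3. It was 0 as well with median-ratio scaling, quantile normalization and no filter, and 1 without the trend. For Emilin1 the adjusted p was 0.0742 and 0.0900 without control replicate 2 or 3 and 0.115 and 0.101 without GSK101 replicate 1 or 2. The limma counts at an unadjusted p of 0.05 were 4 higher and 6 lower, and those of limma-voom were 4 and 6.

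Among 18 tested intracellular regulators of the SMADs, of 19 listed, 4 were higher and 2 lower, 33.3% called beside 31.9% of all tested genes. Pmepa1, a TGF-beta-induced membrane protein that restrains SMAD2 and SMAD3, fell by 0.39 from 97.6 ± 4.37 to 74.6 ± 2.81 RPKM (SD, n = 3; limma adjusted p = 0.00116). Trim33, a ubiquitin ligase that acts on SMAD4, rose by 0.44, and Xpo4, the exportin that carries SMAD3 out of the nucleus, by 0.43 (adjusted p = 0.00898 and 0.00552). Skil, the corepressor SnoN, rose by 0.25 (adjusted p = 0.0137) and Usp15, a deubiquitinase of receptors and SMADs, by 0.37 (adjusted p = 0.0249), though exons of Usp15 overlap another gene on its strand. Skil lost its call without GSK101 replicate 1 (0.0540), and Usp15 without GSK101 replicate 1, 2 or 3 (0.0557, 0.0584 and 0.0720) and with no filter (0.0638). Without GSK101 replicate 1, 2 genes were higher. The other lower gene, Ppp1r15a, a regulatory subunit of protein phosphatase 1 named after its values were seen, had an adjusted p of 0.0471, and 1 gene was lower without control replicate 1, 2 or 3 or GSK101 replicate 1 or 3.

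**Figure D4:**
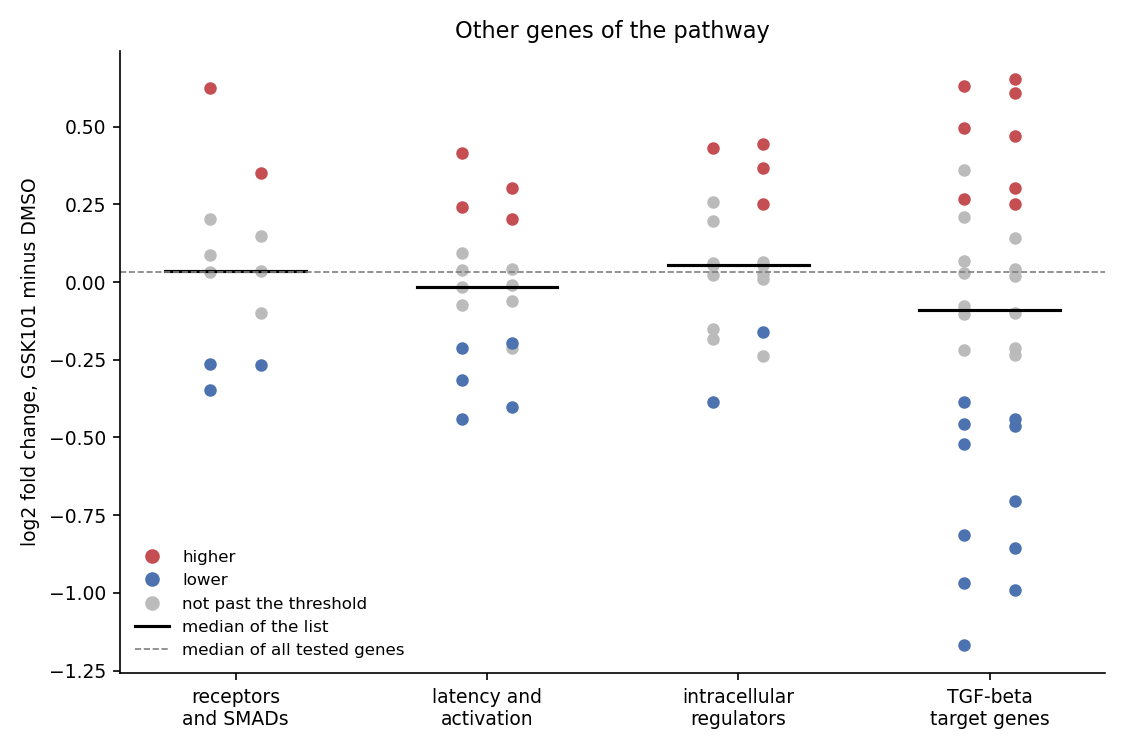
Log2 fold change, GSK101 minus DMSO (vertical axis), of each tested gene in 4 lists of other pathway genes, coloured by call, with list medians as black bars and the median of all tested genes (0.03) dashed; Pmepa1, Skil, Ltbp2 and Thbs1 stand in 2 lists. The falls of over 0.50 all lie among the TGF-beta target genes.

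Genes known as TGF-beta targets did not move one way. Of 32 tested among 35 listed, 8 were higher and 11 lower, with a median log2 fold change of -0.09, and 59.4% were called, beside 31.9% of all tested genes. Elastin (Eln, log2 fold change -1.17), the contractile genes Actg2 (-0.97), Acta2 (-0.86) and Tagln (-0.70), and the tendon factor Scx (-0.82) were the lower genes with the smallest adjusted p (8.28e-05 to 0.000232). Exons of Actg2 and Tagln overlap another gene on their strand. Acta2 and Cnn1, a lower gene as well, are also on the smooth muscle and pericyte list. Of its 7 tested genes 5 fell, Acta2 and Cnn1 among them, and none rose (1 with limma-voom and at an unadjusted p of 0.05). In that list 71.4% were called, beside 31.9% of all tested genes. The part of that shift in the falls of the targets was not tested.

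The higher targets, named after their values were seen except Skil, included the collagen crosslinking enzyme Lox and the transcription factor Snai1. Lox went from 105 ± 3.05 to 146 ± 10.9 RPKM (SD, n = 3), a log2 fold change of 0.47 (limma adjusted p = 0.00107), with exons that overlap a gene on the opposite strand. Snai1 rose by 0.50, the circadian repressor gene Bhlhe40 by 0.63, the lipid kinase gene Sphk1 by 0.61, the matrix gene Tgfbi by 0.65 and fibronectin, Fn1, by 0.30. The groups of Fn1 overlapped, and its exons overlap a gene on the opposite strand. The number of higher targets was 4 without GSK101 replicate 1 and 5 without GSK101 replicate 2. The other lower targets, named in the same way, were Ctgf, Timp3 and Cilp, which fell by 0.52, 0.46 and 0.99, beside Pmepa1, Ltbp2 and Cnn1.

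**Figure D5:**
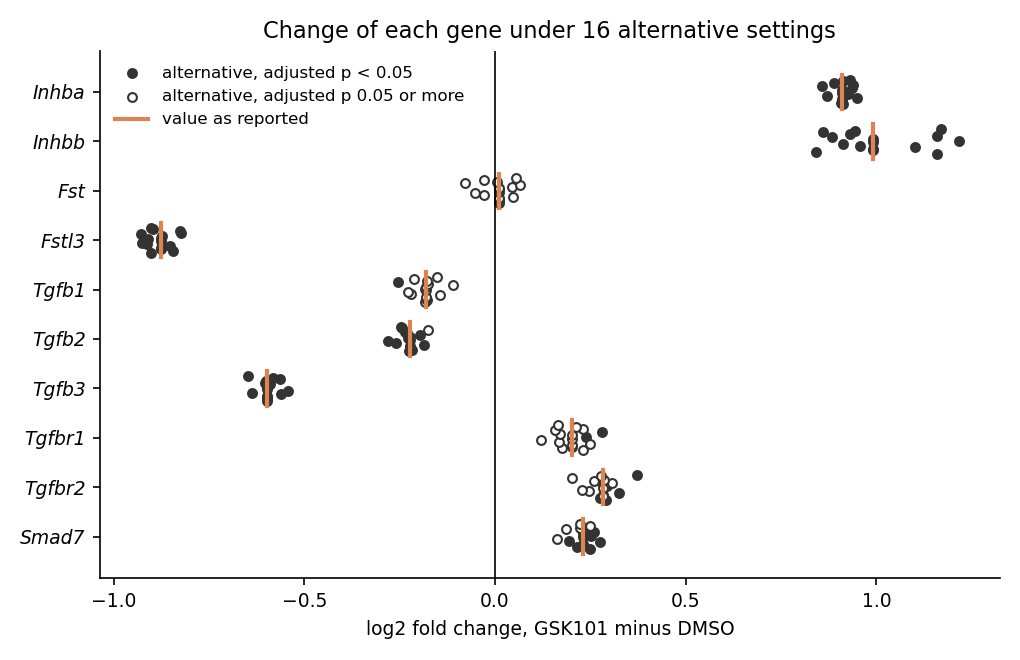
Log2 fold change of each gene (horizontal axis) under each of 16 alternative settings (points, filled where the adjusted p was under 0.05), with the reported value in orange. Inhba, Inhbb, Fstl3 and Tgfb3 are filled throughout, whereas Tgfbr2 and Smad7 hold open points.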

How the data were processed

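The data are 6 RNA sequencing libraries, 3 per group, grouped by their titles. Per the labels' protocols, polyadenylated RNA went into stranded libraries carrying unique molecular identifiers. The authors deposited RPKM values, which the file scales to reads counted to genes. The tools named, without roles, in the submitters' processing notes are STAR 2.5.3a, Trimmomatic 0.36, edgeR 3.12.1, Subread 1.5.1 and featureCounts, with the build Rnor_6.0. The sources used here do not give whether identifiers were collapsed. RPKM times length came out as whole multiples of a step, to within 0.01 read, for 100% of values, which gave the reads. Even numbers made up 71.3% to 74.7% of the values of 1 to 10 reads, so mates may have been counted separately.

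Genes were tested on log2(RPKM + 0.5) with limma 3.58.1 (R 4.3.3), fitting group alone with a mean-variance trend, for genes with at least 0.5 RPKM in at least 3 libraries. The fit was also run on simulated reads in which every gene had the same spread between replicates beyond counting error. That run therefore does not cover genes that spread more, such as Inhbb. The planned count model applied only to a file of counts and was not used. The 10 genes and the gene lists were chosen with earlier results of these data known. Named are all 10 genes and up to 5 genes of each list with the smallest adjusted p, or the 2 of highest mean RPKM where fewer than 2 passed. Alternatives were 2 pseudocounts, 2 filters, 3 scalings, limma without trend, limma-voom, a replicate block and leaving out each of the 6 libraries. No replicate pair agreed within counting noise (chi-square per gene 2.36 to 7.84 on the reads divided by 2, which allows for mates counted separately), and all libraries were counted separately. Promoter windows are from RefSeq (GRCr8).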

Additional observations from a re-analysis of the deposited data

How the results depend on the processing

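Inhba, Inhbb, Fstl3 and Tgfb3 kept their direction and call under all 16 alternatives, with log2 fold changes of 0.86 to 0.95, 0.84 to 1.22, -0.93 to -0.82 and -0.65 to -0.54. Among the other calls of the 10 genes, those of Tgfb2, Tgfbr2 and Smad7 were lost under 1, 9 and 5 alternatives, and Tgfb1 and Tgfbr1 gained one under 2 each. The causes were not tested. The log2 fold change of Fst turned to -0.028 with median-ratio scaling and -0.052 with quantile normalization, and ran from -0.078 to 0.066 with each library left out. That of Gdf11 turned to 0.032 after rescaling to TPM and ran from -0.028 to 0.036.

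Of the 10 genes, 2 were higher with quantile normalization. The latency list had 0 higher genes with no filter, median-ratio scaling or quantile normalization and 1 without the trend. The regulator list had 1 lower gene with no filter, after rescaling to TPM and without the trend, and the other ligands had 0 lower with no filter or the filter at 1 RPKM. With each library left out in turn, 2 to 4 of the 10 genes were higher, and the higher receptors and SMADs numbered 1 to 2, the higher latency genes 0 to 2, the higher regulators 2 to 5, the lower regulators 1 to 2, the higher targets 4 to 9 and the lower other ligands 0 to 1.

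Whether a replicate number stands for a shared animal, culture or batch is unknown. Between samples with the same number, the correlations of deviations from the group means were 0.05, -0.06 and 0.05. Between samples with different numbers they ran from -0.15 to 0.11, so pairs with the same number did not stand out. With 3 libraries a group, these values cannot decide whether such pairs had a common origin. With the replicate block, 2508 genes were higher and 1437 lower over all tested genes, beside 2570 and 1518, and 4 of the 10 genes were higher and 3 lower, as without it. Counting error weighs most on genes with few reads, such as Acvr2b (2 to 8 per library), Gdf15 (14 to 48) and Inha (22 to 44).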
